A study of Homo sapiens with 30 samples.

Results

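RNA-Seq of 4 derivatives of the neuroblastoma (NB) cell line SH-EP was used to ask whether the expression difference that goes with the MYCN substitution S62A depends on whether the substitution T58A is also present. The lines are stable derivatives of SH-EP that carry WT MYCN, MYCN T58A, MYCN S62A, or MYCN with both T58A and S62A (T58A S62A). The 12 libraries of these 4 lines treated with DMSO, the drug's vehicle, for 6 hours were taken as a 2 by 2 factorial, with 3 libraries per line, out of 30 libraries in the series. Parental SH-EP was not used. Each MYCN transgene was introduced by retrovirus and is driven by an exogenous promoter in the same SH-EP background, and each allele is represented by 1 stable line, so that a difference between alleles and a difference between individual lines cannot be told apart. The labels do not say whether the 3 libraries of a group came from separate cultures, so p-values measure the spread between these libraries, which may be technical. The same 4 lines treated with 1 μM CYC065, an inhibitor of the kinases CDK9 and CDK2, for 6 hours gave 12 more libraries that the factorial did not use.

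MYCN is a transcription factor that binds DNA with its partner MAX, often at the E-box CACGTG, and its protein is short-lived. Phosphorylation at S62 primes phosphorylation at T58 by GSK3, and the T58-phosphorylated protein is recognized by the ubiquitin ligase subunit FBXW7 and degraded. T58A removes the FBXW7 recognition site, and S62A removes the priming site, so that both substitutions act on the same phosphodegron. These statements concern the protein, which RNA-Seq does not measure.

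For each gene the interaction was the T58A S62A line minus the T58A line, less the S62A line minus the WT line, on log2(FPKM + 0.1), where FPKM is the number of sequenced fragments relative to transcript length and to the depth of the library. A positive interaction means that the level with S62A, relative to the level without it, was higher when T58A was also present than when it was not. Of 26228 genes in the table, 11439 averaged 1 FPKM or more in the 12 libraries and were tested. The labelled cell type was checked with marker genes. The mesenchymal markers were present in each library, with VIM at 1305 to 1933 FPKM, COL1A1 at 156 to 247 FPKM and PRRX1 at 34.0 to 95.3 FPKM. Among adrenergic markers, PHOX2A was listed at 0 in 12 libraries, DBH in 11 and CHGA in 10, whereas HAND2 was at 44.1 to 89.3 FPKM and GATA3 at 2.82 to 9.45 FPKM. Markers of endothelial cells and of Schwann cells and melanocytes had 0 members above the 1 FPKM filter, blood cell markers had 1 (CD68, not past the threshold) and epithelial markers had 2, of which KRT19 was past it. Total depth is not given by FPKM. Relative depth, estimated from the smallest values of rarely detected genes, was 0.470 to 1 across the 12 libraries, with the second and the third WT libraries deepest, and 41.0% to 45.6% of genes were listed at 0 per library, which can be a failed estimate.

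The interaction differed from 0 for 1387 of the 11439 genes (12.1%) at an adjusted p under 0.05, of which 752 (6.57%) were positive and 635 (5.55%) were negative. In the background without T58A, the S62A line differed from the WT line at 2036 genes (17.8%), with 864 higher (7.55%) and 1172 lower (10.2%). In the T58A background, the T58A S62A line differed from the T58A line at 1245 genes (10.9%), with 519 higher (4.54%) and 726 lower (6.35%). Leaving out 1 library gave 888 to 1806 interaction calls, with 888 without the first S62A library and 917 without the second WT library, by the numbers in the table's column names. The converse pair, for T58A, gave 2066 genes (18.1%) without S62A and 3001 genes (26.2%) with it. These 4 comparisons share libraries and are given side by side. The positive and negative counts hold for FPKM as deposited, which are relative to the total RNA sequenced in each library. With each library scaled to its ERCC spike-ins, which were added by cell number, the median interaction of all genes was 0.83 and 32.3% of genes were called, 3831 positive and 16 negative. On that scale 21 genes were higher and 7201 lower in S62A than in WT (60.6% called), 133 were higher and 15 lower in T58A than in WT (1.24%), and 10549 were higher and 44 lower in T58A S62A than in S62A (88.9%). Less RNA per cell and fewer cells than counted cannot be told apart in bulk libraries. All directions below are relative to the whole transcriptome unless the spike-in scale is named. On that scale 26 of the genes named with a negative interaction had a positive one, AURKA, HUWE1, PSAT1 and MET among them, while relative to the median shift 0 changed sign and 64 of the 87 named genes past the threshold lost their call.

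Among the S62A comparisons, a difference from WT without one in the T58A background was the commonest pattern. The same held among all genes tested that differed in either comparison. Of the 752 positive genes, 371 differed only between S62A and WT, 173 only between T58A S62A and T58A, 81 in both with opposite sign, 21 in both with the same sign, and 106 in neither. Among the 635 negative genes, the same counts were 284, 204, 45, 23 and 79. Over all genes tested they were 1584 (13.8%), 793 (6.93%), 126 (1.10%), 326 (2.85%) and 8610 (75.3%). Read by T58A, 401 positive and 301 negative genes differed only between T58A S62A and S62A, against 18.3% of all genes. Only between T58A and WT, 184 positive and 186 negative genes differed, against 10.1% of all genes. A threshold passed in one background and not in the other is not a test of their difference, which is the interaction itself. The libraries of the S62A line all lay below the 9 others for 319 of the 752 positive genes, against 8.13% of all genes tested, and S62A was the only line so set apart for 222 (29.5%; 5.96% of all genes). For the 635 negative genes, the S62A libraries all lay above the others for 245, against 7.68% of all genes, and S62A was alone in this for 146 (23.0%; 5.89% of all genes). The T58A S62A line alone stood above the rest for 81 positive genes (10.8%; 2.24% of all genes) and alone below it for 84 negative genes (13.2%; 2.52%). T58A alone stood below for 65 positive genes (8.64%; 2.52% of all genes) and above for 85 negative genes (13.4%; 3.29%). WT alone stood above for 61 positive genes (8.11%; 2.94% of all genes) and below for 57 negative genes (8.98%; 2.52%). These shares are computed from the same values as the interaction and describe it. On the spike-in scale the S62A line alone lay below for 73.9% of the 752 positive genes, against 65.9% of all genes tested, and alone above for 0.787% of the 635 negative genes, against 0.0437% of all genes.

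**Figure D1:**
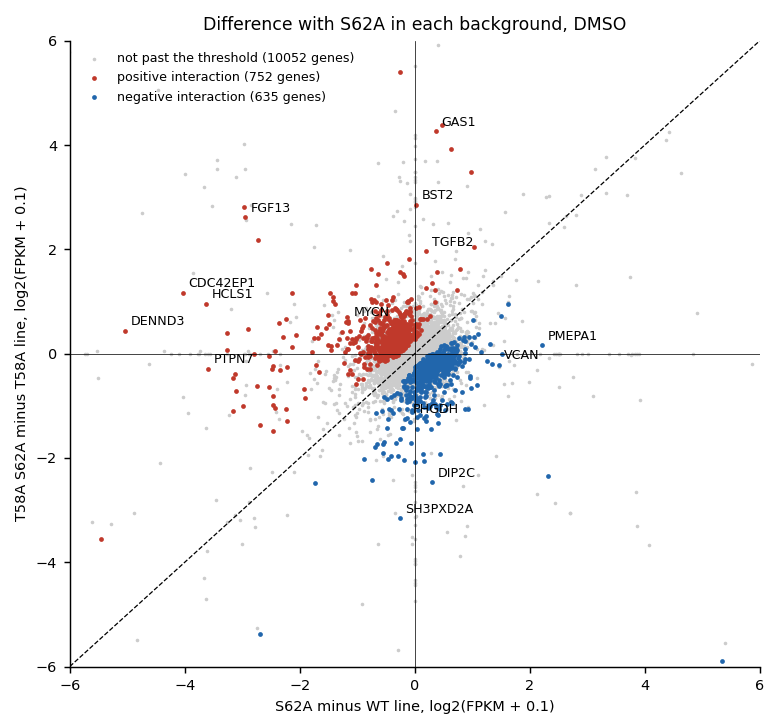
Each point is 1 of the tested genes, with the log2 difference of S62A from WT on the x axis and of T58A S62A from T58A on the y axis, both on log2(FPKM + 0.1), and genes past the interaction threshold are coloured by direction. Points on the diagonal have no interaction, and the 752 positive genes lie above it and the 635 negative genes below it, while 22 genes, 1 of them past the threshold, fall outside the axes.

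MYCN itself differed among the lines. The WT libraries had 13.3, 13.7 and 11.7 FPKM of MYCN, the S62A libraries 5.08, 6.59 and 5.51, the T58A libraries 7.27, 9.84 and 8.44 and the T58A S62A libraries 15.7, 9.06 and 15.7. The 3 S62A libraries were the lowest, the WT libraries lay above all T58A libraries, and of the T58A S62A libraries 2 lay above all WT libraries and 1 within the range of T58A. The interaction was 1.79 (SE 0.28, adjusted p = 0.0025), made of a difference of -1.16 between S62A and WT (adjusted p = 0.00243) and of 0.62 between T58A S62A and T58A, which was not past the threshold (adjusted p = 0.0655). Reads of the transgene and of the endogenous MYCN gene (chromosome 2, 16080672 to 16087129, GRCh37, plus strand) cannot be told apart in these values. The paper describes SH-EP as lacking signs of MYCN amplification or expression. On the spike-in scale the MYCN means were 17.4 ± 3.89 FPKM in WT, 4.77 ± 1.22 in S62A, 14.0 ± 2.27 in T58A and 24.2 ± 7.59 in T58A S62A (SD, n = 3 each). The MYCN level thus moved with the contrast, and its part in the interactions of other genes was not tested. In CYC065 the interaction of MYCN was 2.01 (adjusted p = 8.06e-05).

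FBXW7, which recognizes the phosphodegron, did not pass the threshold. In WT FBXW7 stood at 3.92, 4.8 and 4.46 FPKM, in S62A at 4.06, 3.09 and 3.44, in T58A at 4.32, 3.45 and 5.01 and in the double mutant T58A S62A at 4.48, 4.61 and 4.23. Its S62A libraries lay below those of T58A S62A and overlapped WT and T58A, and the interaction was 0.39 (adjusted p = 0.249). MYC, the paralog of MYCN, was below the filter. MYC was measured at 1.13, 0.995 and 0.992 FPKM in WT, at 1.85, 1.01 and 1.93 in S62A, at 0.414, 0.468 and 0.457 in T58A and at 0.377, 0.494 and 0.635 in T58A S62A. MYC libraries were lowest in the 2 lines with T58A, with no overlap with the 2 lines without it, and no test was made. Of 29 tested genes of phosphodegron and turnover (kinases, phosphatases, ligase and deubiquitinase subunits), 3 had a positive interaction (PLK1, CDC34 and CDK1) and 3 a negative one (HUWE1, AURKA and CUL1), with a median of -0.04 against 0.02 for all genes. Leaving out 1 library at a time left 1 to 2 positive and 2 to 4 negative calls. CDC34 lost its call when any 1 of 10 libraries was left out, CDK1 with any 1 of 11 and CUL1 with any 1 of 7, and the length and GC correction given further on ended the calls of CDC34, CDK1 and TRRAP.

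PLK1, a mitotic kinase reported to stabilize MYCN, was lowest in T58A. Levels of PLK1 were 146, 125 and 116 FPKM in WT, 112, 133 and 120.3 in S62A, 73.8, 82.7 and 82.3 in T58A and 127, 112 and 127 in T58A S62A. The 3 T58A libraries lay below the other 9, which overlapped, and the interaction was 0.70 (SE 0.13, adjusted p = 0.00768). HUWE1, a ubiquitin ligase with MYCN among its substrates, was lowest in WT. For HUWE1 the FPKM values were 15.7, 16.7 and 17.4 in WT, 21.4, 21.8 and 19.6 in S62A, 26.1, 25.1 and 26.8 in T58A and 22.9, 19.7 and 19.6 in T58A S62A. The WT libraries lay below all others and the T58A libraries above all others, with an interaction of -0.66 (SE 0.11, adjusted p = 0.00328). AURKA, the kinase that binds MYCN and protects it from FBXW7, was highest in S62A. AURKA FPKM was 112, 111 and 111 in WT, 139, 135 and 134 in S62A, 81.3, 76.3 and 80.9 in T58A and 80.2, 74 and 73.2 with both substitutions. S62A and WT did not overlap each other or the 2 lines with T58A, and the interaction of AURKA was -0.35 (adjusted p = 0.0117). Within the MYC and MAX network, 2 of 17 tested genes were positive (MYCN and RUVBL2) and 1 was negative (TRRAP). RUVBL2, a chromatin-remodelling ATPase that binds MYC, had an interaction of 0.69 (adjusted p = 0.00764). TRRAP, a scaffold of histone acetyltransferases recruited by MYC, had one of -0.42 (adjusted p = 0.0118).

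Since MYCN and MAX bind the E-box, promoter sequences from RefSeq (GRCh38.p14) were searched for CACGTG, which reads the same on both strands, in the 250 bases before each start. Promoters were matched for 8584 of the 11439 genes (75.0%), and 1064 of their 12598 promoters (8.45%) held the motif. The share was 10.7% (82 of 766 promoters) for genes with a positive interaction and 6.52% (53 of 813) for genes with a negative one. Ribosome biogenesis genes held it in 5 of 44 promoters and genes of the ATF4 list in 4 of 32. Promoters are shown for 3 genes with a positive interaction, selected after their values were seen, because they differ in which line stands apart: TGFB2 in T58A S62A (chr1:218345086-218345335, plus strand, motif 49 bases before the start), PLK1 in T58A (chr16:23678639-23678888, plus strand, motif 198 bases before the start), and PTPN7 in S62A (chr1:202159455-202159704, minus strand, the promoter printed of 3 in the table, with no match). Each runs 5′ to 3′, and capitals mark CACGTG. A match in these letters is a description and does not show binding.
TGFB2: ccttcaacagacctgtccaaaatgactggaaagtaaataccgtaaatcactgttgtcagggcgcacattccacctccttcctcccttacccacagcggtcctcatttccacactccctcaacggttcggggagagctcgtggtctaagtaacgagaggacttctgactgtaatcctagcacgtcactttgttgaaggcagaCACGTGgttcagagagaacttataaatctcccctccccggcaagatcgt
PLK1: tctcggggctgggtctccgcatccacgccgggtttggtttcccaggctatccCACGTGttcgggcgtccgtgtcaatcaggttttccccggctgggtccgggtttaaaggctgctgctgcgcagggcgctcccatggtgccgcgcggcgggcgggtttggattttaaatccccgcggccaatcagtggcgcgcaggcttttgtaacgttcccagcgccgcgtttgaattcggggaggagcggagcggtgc
PTPN7: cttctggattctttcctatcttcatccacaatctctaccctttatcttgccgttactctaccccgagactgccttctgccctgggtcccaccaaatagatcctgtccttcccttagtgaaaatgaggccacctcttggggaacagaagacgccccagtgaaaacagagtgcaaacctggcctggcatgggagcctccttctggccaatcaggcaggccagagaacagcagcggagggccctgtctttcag

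**Figure D2:**
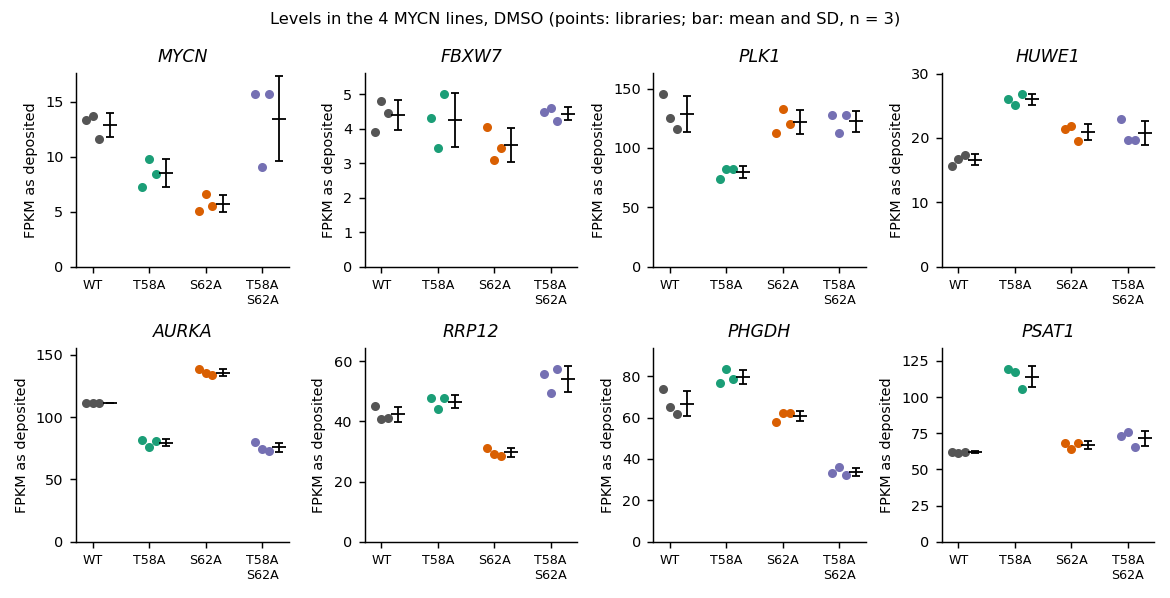
FPKM in each of the 3 DMSO libraries (points) and their mean (bars) in each of the 4 lines, 1 panel per gene, each with its own linear axis from 0. The lines that stand apart differ between genes, with S62A lowest for MYCN.

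The genes with the steadiest positive interaction, by the value nearest to 0 that any choice of 1 library per line gives, were mostly low in S62A. DENND3, a guanine nucleotide exchange factor for RAB12, was an exception. The WT libraries had 25.4, 22.3 and 21 FPKM of DENND3, the S62A libraries 0.545, 0.728 and 0.531, the T58A libraries 0.598, 0.523 and 0.538 and the T58A S62A libraries 1.17, 0.669 and 0.611. WT was at more than 20 FPKM in each library and the other 3 lines overlapped near the low end, so the interaction of 5.48 (SE 0.32, adjusted p = 2.45e-06) rests on the WT line. DENND3 also reached the filter of 1 FPKM only through that line. Its interaction was 5.63 in CYC065. FGF13, an intracellular FGF homolog that regulates sodium channels, moved in opposite directions. In WT FGF13 stood at 7.21, 8.26 and 9.1 FPKM, in S62A at 1.27, 0.952 and 0.74, in T58A at 4.15, 2.5 and 1.97 and in the double mutant T58A S62A at 15.7, 20.9 and 15.9. The 4 lines did not overlap, with S62A lowest and T58A S62A highest, and S62A went with a difference of -2.95 in the absence and 2.62 in the presence of T58A, for an interaction of 5.57 (SE 0.35, adjusted p = 4.95e-06).

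CDC42EP1, an effector of the GTPase CDC42, was lowest in S62A. CDC42EP1 was measured at 26.8, 18.3 and 15.9 FPKM in WT, at 1.46, 0.905 and 1.04 in S62A, at 10.1, 13.1 and 11.6 in T58A and at 25.3, 24.2 and 28.5 in T58A S62A. WT and T58A S62A overlapped, T58A lay below them, and the interaction was 5.20 (SE 0.28, adjusted p = 1.4e-06). LEF1, a transcription factor of the Wnt pathway, was low throughout. Levels of LEF1 were 0.889, 0.941 and 1.22 FPKM in WT, 0.0335, 0.0832 and 0.0878 in S62A, 0.688, 0.617 and 0.347 in T58A and 2.75, 2.69 and 2.88 in T58A S62A. The S62A libraries lay below the pseudocount of 0.1, and the T58A S62A libraries above the other 9, with an interaction of 4.92 (SE 0.49, adjusted p = 0.000127). LEF1 reached the filter of 1 FPKM only through the T58A S62A line. HCLS1, an actin-binding adaptor of the cortactin family best known in blood cells, was also lowest in S62A. For HCLS1 the FPKM values were 13, 12.4 and 9.61 in WT, 0.89, 0.712 and 0.936 in S62A, 4.29, 3.87 and 3.85 in T58A and 8.05, 8.33 and 7.17 in T58A S62A. The 4 lines were separate, and its interaction was 4.59 (SE 0.19, adjusted p = 4.48e-07).

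PTPN7, a tyrosine phosphatase that acts on MAP kinases, was lowest in S62A. PTPN7 FPKM was 28.3, 25 and 24.3 in WT, 1.74, 2.35 and 2.08 in S62A, 18.4, 19.2 and 18 in T58A and 16.4, 14.1 and 14.9 with both substitutions. The S62A libraries lay far below the 9 others, and WT lay above T58A and T58A S62A. S62A differed from WT by -3.60 (adjusted p = 4.14e-09), whereas T58A S62A and T58A differed by -0.29 (adjusted p = 0.104), and the interaction was 3.30 (SE 0.15, adjusted p = 5.42e-07). SRGN, the proteoglycan serglycin, had an interaction of 2.90 (adjusted p = 7.43e-07), with S62A at 4.18 to 5.59 FPKM and the other lines at 13.7 to 25.3 FPKM. HBE1, the embryonic epsilon globin, was lowest in S62A and highest in T58A S62A. The WT libraries had 14.6, 14.5 and 11.2 FPKM of HBE1, the S62A libraries 2.93, 2.68 and 3.33, the T58A libraries 14.5, 14.2 and 13.2 and the T58A S62A libraries 31.4, 33.7 and 28.7. WT and T58A overlapped between these, and the interaction was 3.29 (SE 0.16, adjusted p = 7.43e-07).

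PDLIM1, a cytoskeletal LIM protein, was at 0.156 to 0.296 FPKM in S62A and at 1.78 FPKM or more elsewhere, and had an interaction of 3.36 (adjusted p = 5.63e-05). GAS1, a growth-arrest protein and hedgehog coreceptor, was raised in 1 line. In WT GAS1 stood at 0.361, 0.164 and 0.35 FPKM, in S62A at 0.342, 0.519 and 0.326, in T58A at 0.171, 0.165 and 0.215 and in the double mutant T58A S62A at 5.54, 6.22 and 4.4. The T58A S62A libraries lay at 4.4 FPKM or more, whereas the 9 others lay at or below 0.519 FPKM, and the interaction was 3.90 (SE 0.51, adjusted p = 0.000905). GAS1 reached the filter of 1 FPKM only through the T58A S62A line, so the filter and the interaction rest on the same libraries. The 10 positive genes thus fell into 3 kinds by line: WT high (DENND3), T58A S62A high (GAS1) and S62A low with or without T58A S62A high (8 genes).

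The genes with the steadiest negative interaction were mostly low in T58A S62A or high in T58A. SH3PXD2A, the podosome scaffold TKS5, combined both. SH3PXD2A was measured at 0.797, 0.896 and 0.811 FPKM in WT, at 0.746, 0.555 and 0.765 in S62A, at 2.82, 2.77 and 3.03 in T58A and at 0.308, 0.152 and 0.259 in T58A S62A. The interaction was -2.90 (SE 0.40, adjusted p = 0.00117), from a difference of -3.16 in the T58A background and of -0.25 without T58A. All libraries outside T58A lay at 0.896 FPKM or less. SH3PXD2A thus reached the filter of 1 FPKM only through the T58A line, which also carries the interaction. DIP2C, a member of the DIP2 family, was low in T58A S62A only. Levels of DIP2C were 4.1, 4.28 and 3.76 FPKM in WT, 4.53, 6.13 and 4.5 in S62A, 3.56, 4.28 and 4.38 in T58A and 0.689, 0.733 and 0.55 in T58A S62A. Its T58A S62A libraries lay below 1 FPKM and the other 9 at 3.56 FPKM or above, for an interaction of -2.76 (SE 0.22, adjusted p = 3.66e-05). GFPT2, an enzyme of hexosamine synthesis, was also lowest there. For GFPT2 the FPKM values were 13.3, 12.9 and 13.6 in WT, 15.8, 18.3 and 18.6 in S62A, 12.9, 13.2 and 12.9 in T58A and 5.42, 6.14 and 5.5 in T58A S62A. S62A was highest and T58A S62A lowest, without overlap with WT or T58A, and the interaction was -1.58 (SE 0.11, adjusted p = 1.16e-05).

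LONRF2, a RING-finger protein, had an interaction of -1.99 (adjusted p = 3.66e-05), with S62A highest at 4.89 to 5.31 FPKM and T58A S62A lowest at 1.53 to 1.69 FPKM. JPH1, a junctophilin that ties membranes together, had one of -1.73 (adjusted p = 0.000621), with T58A S62A at 1.56 to 1.84 FPKM and all others at 2.66 FPKM or more. P2RY1, a purinergic receptor, was at 0.21 to 0.354 FPKM in T58A S62A and at 0.746 FPKM or more in the others, for an interaction of -2.22 (adjusted p = 0.00645). In these 3 genes the T58A S62A libraries lay below the other 9. DKK2, a secreted Wnt antagonist, was instead high in T58A. DKK2 FPKM was 1.89, 1.71 and 1.83 in WT, 1.83, 2.02 and 2.18 in S62A, 5.25, 4.5 and 4.68 in T58A and 1.58, 1.07 and 0.999 with both substitutions. The T58A libraries lay above the other 9, T58A S62A lay lowest, and the interaction was -2.06 (SE 0.24, adjusted p = 0.000477).

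VCAN, the matrix proteoglycan versican, was high in S62A. The WT libraries had 6.48, 8 and 7.79 FPKM of VCAN, the S62A libraries 21.9, 20.5 and 19.2, the T58A libraries 10.5, 9.59 and 9.87 and the T58A S62A libraries 8.72, 9.24 and 7.81. The S62A libraries lay at 19.2 FPKM or more and the other 9 at 10.5 FPKM or less, for an interaction of -1.67 (SE 0.14, adjusted p = 3.71e-05). PMEPA1, a TGF-β-induced membrane protein that dampens SMAD signaling, was also high in S62A. In WT PMEPA1 stood at 2.08, 1.92 and 1.83 FPKM, in S62A at 9.68, 7.65 and 11.2, in T58A at 0.769, 1.16 and 1.07 and in the double mutant T58A S62A at 1.09, 1.05 and 1.21. No S62A library overlapped the others, and the interaction was -2.05 (SE 0.26, adjusted p = 0.000675). SLC1A4, a neutral amino acid transporter, was lowest in WT, at 0.729 to 0.935 FPKM, and highest in S62A, at 2.23 to 2.47 FPKM, with an interaction of -1.53 (adjusted p = 0.0031).

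**Figure D3:**
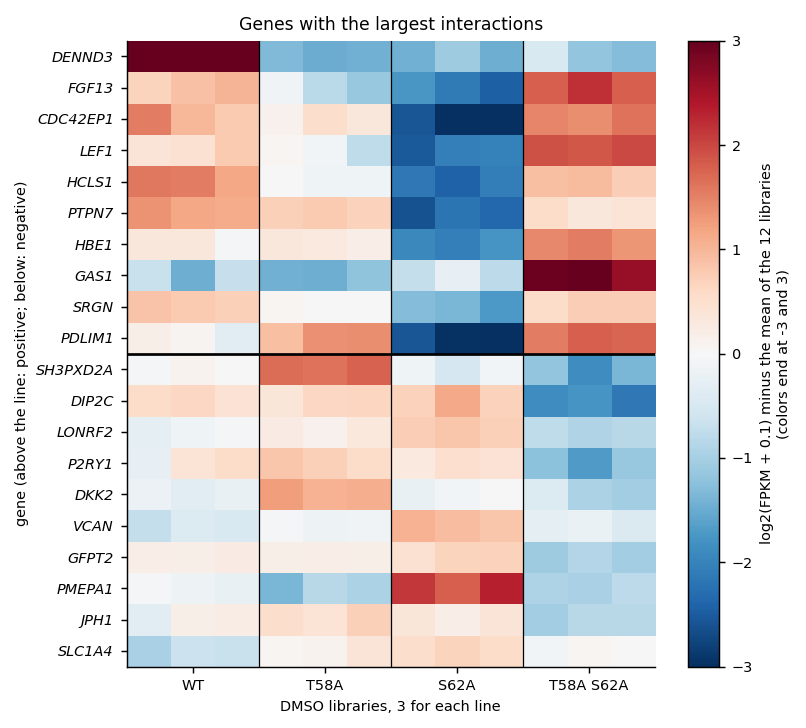
Per-library log2(FPKM + 0.1), less each gene's mean over the 12 DMSO libraries, for the 10 positive and 10 negative genes with the steadiest interaction. Colours are capped at both ends of the scale. DENND3 is high in WT alone, most other positive genes are low in S62A, and the negative genes are low in T58A S62A, high in T58A or, as for VCAN and PMEPA1, high in S62A.

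Gene lists of known function were then counted. Across 32 lists, members past the threshold are given beside 6.57% positive, 5.55% negative and a median of 0.02 for all genes tested. Ribosome biogenesis, the assembly of ribosomal subunits and a process driven by MYC proteins, had 13 positive and 0 negative members of 41 tested, with 38 members above 0 and a median of 0.24. In S62A 17 of its members were lower than in WT and 0 were higher, against 10.2% and 7.55% of all genes. In the T58A background 2 were higher and 0 lower, against 4.54% and 6.35% of all genes. In T58A 14 members were lower than in WT and 2 were higher, against 1086 lower and 980 higher of all 11439 genes. RRP12, an export factor of pre-ribosomal particles, was lowest in S62A. RRP12 was measured at 45.2, 40.7 and 41.1 FPKM in WT, at 31.3, 29.3 and 28.6 in S62A, at 47.9, 44 and 47.8 in T58A and at 55.7, 49.3 and 57.5 in T58A S62A. The S62A libraries lay below the other 9, and the interaction was 0.72 (SE 0.10, adjusted p = 0.00159). NIP7 and NOP16, both nucleolar proteins of the large subunit, had interactions of 0.53 (adjusted p = 0.00275) and 0.59 (adjusted p = 0.00416). GAR1, a core protein of H/ACA small nucleolar particles, was lowest in S62A, at 36.2 FPKM or more, and at 66.3 to 69.1 FPKM in WT, with an interaction of 0.69 (adjusted p = 0.0113). Leaving out 1 library gave 8 to 14 positive and 0 to 1 negative members, with 8 positive when either the second WT or the third T58A library was left out.

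Cytosolic ribosomal proteins, the structural parts of the ribosome, had 5 positive and 0 negative members of 79 tested, a share of members near that of all genes, with a median of 0.24. RPS25, a protein of the small subunit, had the lowest adjusted p. Levels of RPS25 were 1544, 1405 and 1405 FPKM in WT, 909, 940.4 and 1034 in S62A, 977, 1123 and 984 in T58A and 1232, 1501 and 1326 in T58A S62A. Each WT and T58A S62A library lay above each T58A and S62A library, and the interaction was 0.99 (SE 0.12, adjusted p = 0.000675). RPS21 had an interaction of 0.76 (adjusted p = 0.00578) and RPS15 one of 0.86 (adjusted p = 0.0142). The count was 3 to 12 when 1 library was left out, with 12 without the third WT library and 11 without the second T58A S62A library. In CYC065, 5 members were positive and 17 negative, with a median of -0.085. After the length and GC correction described below, the DMSO median of this list was 0.12. The list's medians in the WT libraries, relative to each gene's mean over the 12 DMSO libraries, were -0.039, 0.051 and 0.24.

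Targets of ATF4, the transcription factor of the amino acid response, together with serine synthesis genes, had 0 positive and 11 negative members of 24 tested, with a median of -0.34. In the T58A background 12 members were lower in T58A S62A and 0 higher, against 6.35% and 4.54% of all genes. Between S62A and WT 7 were higher and 3 lower, against 7.55% and 10.2% of all genes. Between T58A and WT 13 were higher and 0 lower, against 980 and 1086 of all 11439 genes. Between T58A S62A and S62A 4 were higher and 4 lower, against 1566 and 1435 of all genes. The list's library medians, relative to each gene's mean over the 12, were 0.24 to 0.30 in T58A. They were -0.14 to -0.071 in WT, -0.13 to -0.049 in S62A and -0.097 to 0.014 in T58A S62A. PHGDH, the first enzyme of serine synthesis, was lowest in T58A S62A. For PHGDH the FPKM values were 73.8, 65.2 and 61.5 in WT, 58.1, 62.2 and 62.2 in S62A, 77, 83.6 and 78.6 in T58A and 33.3, 36.1 and 32.1 in T58A S62A. T58A S62A lay below the other 9 libraries at 32.1 to 36.1 FPKM, and the interaction was -1.10 (SE 0.11, adjusted p = 9.9e-05). PSAT1, the next enzyme of that pathway, was highest in T58A. PSAT1 FPKM was 62, 61.5 and 62.3 in WT, 68.5, 63.8 and 68.3 in S62A, 119, 117 and 106 in T58A and 73, 75.7 and 65.6 with both substitutions. The T58A libraries lay above the other 9, and the interaction was -0.79 (SE 0.10, adjusted p = 0.000562).

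SLC7A1, a transporter of cationic amino acids, had an interaction of -0.68 (adjusted p = 0.000766). Of the other members past the threshold, DDIT3, the stress transcription factor CHOP, was at 6.31 to 7.56 FPKM in T58A S62A and at 9.72 FPKM or more in the other lines, with an interaction of -1.25 (adjusted p = 0.00189). PSPH, the third enzyme of serine synthesis, had one of -0.68, and ASNS, asparagine synthetase, one of -0.50. SESN2, a leucine sensor, had one of -0.76 and CEBPG, a partner of ATF4, one of -0.59. CHAC1, which degrades glutathione, was at 7.27 to 9.06 FPKM in T58A and at 4.35 FPKM or less elsewhere. Its interaction of -0.95 (adjusted p = 0.0393) and that of SLC7A11, the cystine transporter, at -0.46 (adjusted p = 0.0262), lost their calls when any 1 of 9 and any 1 of 5 libraries, respectively, was left out. Between 8 and 11 members were negative and 0 positive when 1 library was left out. In CYC065 the list had 5 positive and 3 negative members.

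Matrix genes moved in both directions. Of 33 tested matrix and remodelling genes other than collagens, 5 were positive and 12 negative (median -0.13), and leaving out 1 library gave 5 to 6 positive and 11 to 12 negative. MMP2, a matrix metalloproteinase, was highest in S62A. The WT libraries had 93.8, 89.7 and 88.4 FPKM of MMP2, the S62A libraries 134, 131 and 139, the T58A libraries 104, 105 and 105 and the T58A S62A libraries 93.6, 81.7 and 88.2. S62A lay above the other 9 libraries, and the interaction was -0.83 (SE 0.08, adjusted p = 0.000119). FN1, fibronectin, was highest in T58A, at 48.9 to 55.0 FPKM, and lowest in T58A S62A, down to 27.0 FPKM, with an interaction of -0.89 (adjusted p = 0.000544). Among 16 collagen genes 3 were positive and 1 negative. COL16A1, a fibril-associated collagen, was low in S62A. In WT COL16A1 stood at 3.83, 3.2 and 3.42 FPKM, in S62A at 0.576, 0.43 and 0.636, in T58A at 4.43, 4.24 and 5.29 and in the double mutant T58A S62A at 3.71, 4 and 3.61. S62A lay below 1 FPKM and all others above 3 FPKM, for an interaction of 2.19 (SE 0.22, adjusted p = 0.000136). COL8A1, a network-forming collagen, was highest in T58A S62A, at 29.1 to 33.9 FPKM, with an interaction of 1.15 (adjusted p = 0.000479). COL6A3, of the beaded microfibrils, was lowest there, at 8.53 to 9.34 FPKM, with an interaction of -0.67 (adjusted p = 0.00179).

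Cell adhesion and integrin genes had 1 positive and 6 negative members of 15 tested (median -0.30), and 5 to 7 negative members when 1 library was left out. ITGA2, a subunit of a collagen receptor, was lowest in T58A S62A, at 17.6 to 21.4 FPKM against 23.2 to 40.3 FPKM elsewhere, with an interaction of -1.25 (adjusted p = 0.00117). CDH2, N-cadherin, had an interaction of -1.02 (adjusted p = 0.00235). CD44, the hyaluronan receptor, was highest in S62A, at 247 to 257 FPKM, and lowest in T58A S62A, at 147 to 168 FPKM, with an interaction of -0.48 (adjusted p = 0.00318). Receptor tyrosine kinases had 0 positive and 5 negative members of 15 tested (median -0.15), with 5 to 6 negative members when 1 library was left out. MET, the receptor of hepatocyte growth factor, was lowest in WT. MET was measured at 39.8, 46.4 and 46.4 FPKM in WT, at 71.8, 71.1 and 66.3 in S62A, at 58.3, 55.5 and 58.1 in T58A and at 62, 66.8 and 57.1 in T58A S62A. WT lay below the other 9 libraries, and the interaction was -0.55 (SE 0.11, adjusted p = 0.00878). PDGFRB, a receptor of platelet-derived growth factor, had an interaction of -0.54 (adjusted p = 0.00258), and DDR1, a collagen-binding kinase, one of -0.39 (adjusted p = 0.0134).

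YAP and TEAD targets, genes of the Hippo pathway, had 6 positive and 2 negative members of 19 tested (median 0.08), with 4 to 6 positive when 1 library was left out. CYR61, a matricellular protein, was highest in T58A S62A. Levels of CYR61 were 186, 182 and 159 FPKM in WT, 152, 149.6 and 149 in S62A, 134, 135 and 140.1 in T58A and 228, 222 and 215 in T58A S62A. T58A S62A lay above the other 9 libraries and T58A below them, with an interaction of 0.93 (SE 0.09, adjusted p = 9.41e-05). ANKRD1, an ankyrin repeat protein of the nucleus and sarcomere, had an interaction of 1.01 (adjusted p = 0.000577). CTGF, also matricellular, was at 157 to 173 FPKM in T58A S62A and at 101 to 116 FPKM in the other lines, with an interaction of 0.56 (adjusted p = 0.00142). The 2 negative members included TEAD1, a DNA-binding partner of YAP, which was highest in S62A (36.8 to 41.6 FPKM) and had an interaction of -0.66 (adjusted p = 0.00311). PTPN14, which binds and restrains YAP, was the other, with an interaction of -0.52 (adjusted p = 0.00423).

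In the TGF-β and BMP pathway, 3 members were positive and 3 negative of 26 tested, with 2 to 5 positive and 3 to 5 negative when 1 library was left out, the highest of both without the second T58A S62A library. TGFB2, a ligand, was raised in 1 line. For TGFB2 the FPKM values were 2.52, 3.1 and 2.74 in WT, 3.1, 3.73 and 2.86 in S62A, 2.95, 3.21 and 3.04 in T58A and 12.8, 12.5 and 11.4 in T58A S62A. T58A S62A lay at 11.4 FPKM or more and the other 9 libraries at 3.73 FPKM or less, for an interaction of 1.76 (SE 0.17, adjusted p = 9.41e-05). LTBP1, which stores latent TGF-β in the matrix, was lowest in T58A S62A and highest in S62A, with an interaction of -1.16 (adjusted p = 0.000522). FST, the activin antagonist follistatin, was at 0.1 to 0.585 FPKM in S62A and at 2.78 to 3.1 FPKM in WT, with an interaction of 3.66 (SE 0.72, adjusted p = 0.00889).

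Identity factors of NB cells moved singly rather than as lists. Of 26 tested mesenchymal transcription factors, 1 was positive and 3 were negative (median -0.04). PRRX1, a homeobox factor of the mesenchymal state, was highest in T58A. PRRX1 FPKM was 45.5, 52.1 and 54.6 in WT, 56.2, 57.1 and 55.5 in S62A, 95.3, 83.9 and 87.5 in T58A and 39.5, 39.6 and 34 with both substitutions. The T58A libraries lay above and the T58A S62A libraries below all others, for an interaction of -1.39 (SE 0.12, adjusted p = 5.08e-05). TWIST1, a factor of epithelial-to-mesenchymal transition, had the opposite sign, 0.86 (adjusted p = 0.000675), with T58A S62A highest at 35.4 to 37.9 FPKM and S62A lowest at 19.8 to 21.7 FPKM. TBX18, a T-box factor, had an interaction of -0.78 (adjusted p = 0.0147). Of 11 tested adrenergic genes, PBX3, a TALE homeobox factor, had a negative interaction of -1.12 (adjusted p = 5.63e-05). HAND2, of the sympathetic lineage, had a positive one of 0.43 (adjusted p = 0.037), which was lost when any 1 of 9 libraries was left out.

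The other lists had members past the threshold in both directions or few in all, and several counts rested on single libraries. Targets of p53 had 1 positive and 4 negative of 22, with 0 to 1 positive and 1 to 6 negative when 1 library was left out. The count was 6 negative without the second T58A S62A library. It was 1 without the second S62A, the third T58A or the third T58A S62A library. In S62A 12 of the p53 targets were higher than in WT, against 7.55% of all genes. CDKN1A, the p53-induced inhibitor of cyclin-dependent kinases, was raised with S62A in both backgrounds. The WT libraries had 44.9, 43.8 and 41 FPKM of CDKN1A, the S62A libraries 85.5, 87.1 and 88.5, the T58A libraries 51.8, 54.5 and 53.1 and the T58A S62A libraries 83.9, 81.2 and 84.5. The 2 lines with S62A lay above the 2 without it, by 1.01 without T58A and 0.65 with it, and the interaction was -0.36 (adjusted p = 0.0101). NRF2 targets, the genes of the oxidative stress response, had 2 positive and 5 negative of 24, and leaving out 1 library gave 1 to 2 positive and 2 to 7 negative, with 2 negative without either the first or the third T58A library. Among them AKR1C3, an aldo-keto reductase, had an interaction of -1.66 (adjusted p = 0.0113) and EPHX1, an epoxide hydrolase, one of 0.66 (adjusted p = 0.00338). Cholesterol and fatty acid synthesis had 2 positive and 4 negative of 31, with ACLY, which makes cytosolic acetyl-CoA, at -0.50 (adjusted p = 0.00154). DNA replication had 3 positive and 0 negative of 36, mitosis 2 and 4 of 32, nucleotide and one-carbon synthesis 2 and 0 of 26, and glycolysis 0 and 0 of 20. Contractile cytoskeleton genes had 3 positive and 3 negative of 13, but 1 to 4 positive and 0 to 2 negative when 1 library was left out (0 negative without the second WT, the first S62A, the first or the third T58A, or the first or the third T58A S62A library), and 2 positive and 0 negative after the length and GC correction described below. TAGLN, an actin-binding protein, was the steepest of them, with an interaction of 1.07 (adjusted p = 0.00889) and S62A at 4.87 to 7.39 FPKM against 12.1 to 28.1 FPKM elsewhere. H19, an imprinted noncoding RNA, was at 281 to 302 FPKM in S62A and at 956 FPKM or more in WT and T58A, and its interaction was 1.25 (SE 0.13, adjusted p = 0.000155). By its mean log2 level H19 was also lower in T58A S62A than in T58A, by less than in S62A against WT.

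**Figure D4:**
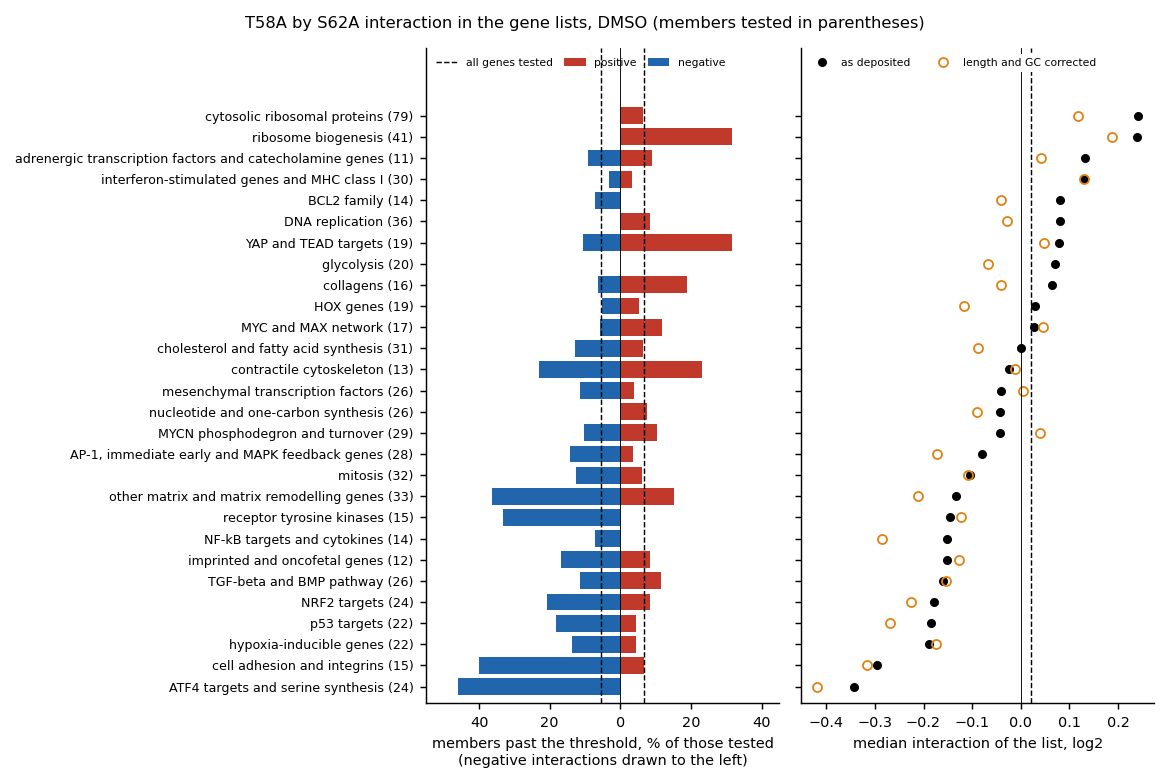
Left, the percent of tested members of each of 28 lists past the interaction threshold, positive to the right and negative to the left, with dashed lines at the 6.57% and 5.55% of all genes. Right, the median log2 interaction of each list as deposited (filled) and after correction for transcript length and GC content (open), with ribosome biogenesis and ribosomal proteins highest as deposited and the ATF4 list lowest on both.

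The interaction moved with transcript length and GC content. In the shortest quintile of transcripts the median interaction was 0.24, with 12.9% positive and 1.35% negative, and in the longest quintile it was -0.18, with 2.56% positive and 13.6% negative. Across genes the rank correlation of the interaction was -0.378 with length and 0.253 with GC content, given as a description over 11113 genes that share these 12 libraries. In CYC065 the medians of the same quintiles were 0.02 and -0.02. These trends differed between libraries of 1 line, by medians relative to each gene's mean over the 12. In the shortest quintile WT library 1 was at 0.20 and the other WT libraries at 0.066 and 0.011. The S62A libraries were at -0.12, -0.096 and -0.054. At the highest GC content WT library 1 was at 0.20 and the others at 0.012 and -0.074, overlapping S62A (-0.12 to -0.068). T58A S62A was there at 0.11, -0.12 and 0.17. The part of single libraries was not tested. After a correction of each library for length and GC content, 14.1% of genes were called, 787 positive (7.08%) and 781 negative (7.03%), and 1025 of 1374 earlier calls kept their direction. Ribosome biogenesis then had 15 positive and 0 negative members, ribosomal proteins 5 and 1, the ATF4 list 0 and 14, other matrix genes 6 and 15, and adhesion genes 2 and 8. The part of transcript length in the other results was not tested.

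Genes with an interaction also lay close together on some chromosomes. In 282 windows of 10 Mb with at least 10 tested genes (GRCh37), the median interaction ranged from -0.42 to 0.47, and the stretches described here were selected after their values were seen. On chromosome 11, from 80 to 130 Mb, 48 of 164 tested genes were positive and 2 negative (median 0.36), against 44 and 20 of the 470 other genes of that chromosome (median 0.07). The median difference in that stretch was -0.32 between S62A and WT and 0.02 in the T58A background. RPS25, TAGLN, HSPA8 and DDX10 lie within it. On chromosome 1, from 110 to 120 Mb, 0 of 52 genes were positive and 18 negative (median -0.28), and from 140 to 150 Mb 1 of 30 was positive and 10 negative (median -0.42), against 78 and 63 of 1062 for the rest of the chromosome. In the first 10 Mb of chromosome 19, which hold CDC34 and RPS15, 50 of 162 genes were positive and 0 negative (median 0.47). Libraries of 1 line lay further apart there, by their medians relative to each gene's mean over the 12. The WT libraries spanned -0.074 to 0.19 and the T58A S62A libraries -0.0025 to 0.33. In the chromosome 11 stretch the same lines spanned 0.020 to 0.13 and 0.066 to 0.13. After the length and GC correction the chromosome 11 stretch had 55 positive and 1 negative (median 0.34) and the chromosome 19 stretch 43 and 4 (median 0.24). In CYC065 the chromosome 11 median was 0.34. DNA copy number was not measured in these data, and its part was not tested.

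The same contrast was computed in the 12 CYC065 libraries, which come from the same 4 lines and so are no independent check of the alleles. There 1632 of 11047 genes (14.8%) were past the threshold, 759 positive (6.87%) and 873 negative (7.9%). Of the 1348 DMSO calls tested in both, 622 were called in the same direction and 8 in the opposite one, which is 46.1% of the DMSO calls and 38.7% of the 1609 CYC065 calls tested in both, against 15.1% of all genes tested in both that were called in CYC065. The sign was the same for 1232 DMSO calls (91.4%), against 65.6% of all 10662 genes tested in both. Across these genes Pearson's r of the interactions was 0.257 and Spearman's rho 0.469, a description over genes that share lines. On the spike-in scale the CYC065 interaction had 6171 positive and 26 negative calls (61.8% of genes).

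Among genes named above, the interaction in CYC065 was 6.00 for FGF13, 4.44 for CDC42EP1, 4.52 for HCLS1 and 3.11 for PTPN7. It was 1.94 for TGFB2 and 1.15 for H19. Among negative genes it was -2.59 for DIP2C, -1.56 for GFPT2, -1.33 for PHGDH and -1.34 for PRRX1. Each of these 10 genes passed the threshold in CYC065 with the sign it had in DMSO. The CYC065 interaction was -0.07 for HUWE1 (adjusted p = 0.562) and 0.22 for TWIST1 (adjusted p = 0.604), neither past the threshold. In the direct test of the difference between treatments, given next, HUWE1 was past the threshold and TWIST1 was not.

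The difference between the interactions in CYC065 and DMSO, tested over all 24 libraries, was past the threshold for 31 of 11473 genes (0.27%), 18 positive and 13 negative. CXCL8, a neutrophil-attracting chemokine, had an interaction of -1.21 in DMSO and 0.80 in CYC065, a difference of 2.01 (SE 0.31, adjusted p = 0.00898). EFNB2, an ephrin ligand, had -0.25 and 1.34, a difference of 1.59 (SE 0.23, adjusted p = 0.00898). HSPA8, the constitutive heat-shock cognate protein, had 0.40 and -0.26, a difference of -0.66 (SE 0.08, adjusted p = 0.00221). On the spike-in scale limma called 0 genes for this difference.

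**Figure D5:**
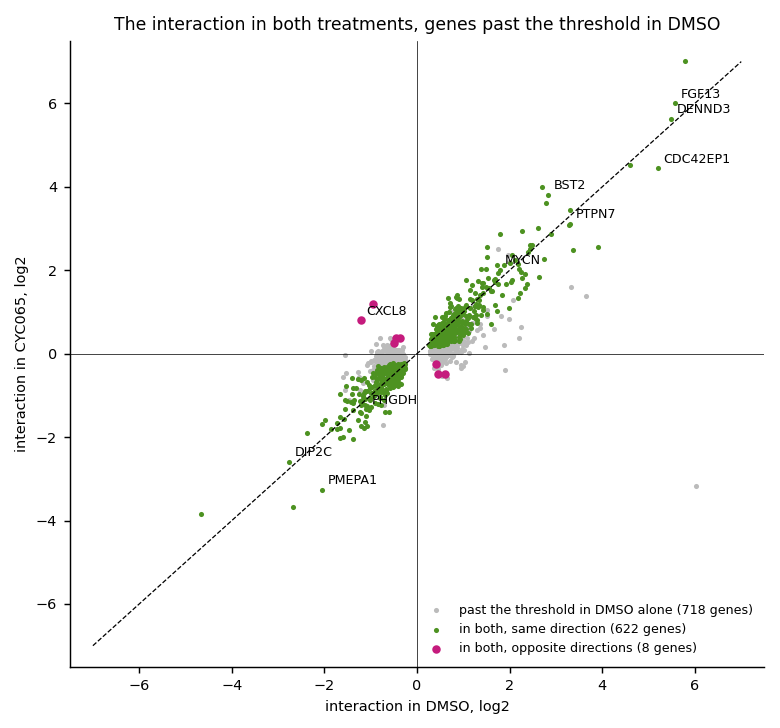
Each point is 1 of the 1348 genes past the threshold in DMSO that were tested in both treatments. Its interaction in DMSO is on the x axis and that in CYC065 on the y axis, in log2 units. Genes not past the threshold in DMSO are not drawn. Genes called in both mostly lie in the quadrants of equal sign (622 against 8), and 1 called gene falls outside the axes.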

How the data were processed

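RNA-Seq libraries were grouped by line and treatment as the sample labels give them, and no values were imputed. Per the study's methods, the authors spiked total RNA with ERCC standards in proportion to cells, enriched polyadenylated RNA, built directional libraries, mapped reads to hg19 using HISAT2, and obtained FPKM from Cufflinks. The deposited FPKM are not scaled to the spike-ins. Read counts are not given by FPKM, so total depth is unknown (relative depth was estimated from the smallest values), no counting error is available, and changes of low genes are understated on log2(FPKM + 0.1). A value of 0 can be a failed estimate.

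Genes averaging 1 FPKM or more in the 12 DMSO libraries entered limma 3.58.1 under R 4.3.3 (lmFit and eBayes with trend, not robust), in 1 fit of 4 groups without a block. P-values were two-sided and adjusted by Benjamini-Hochberg over all genes tested, with a threshold of 0.05. The same fit was made for 12 CYC065 libraries, and a fit of 24 libraries gave the difference between treatments. In simulated data for the DMSO interaction (11439 genes), 67 of 100 genes changed by 1 and 88 of 100 changed by 2 on the log2 scale were recovered, and 7 unchanged genes were called. The simulated noise was independent between genes and libraries, and changes were placed in T58A S62A only. It held no shift shared by the genes of a library, so these rates need not hold for the real libraries.

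Named genes were MYCN, MYC and FBXW7, the 10 positive and 10 negative genes past the threshold whose interaction nearest to 0 over the 81 choices of 1 library per line was largest (none listed at 0), up to 3 members of each list with the lowest adjusted p, and for the treatment difference the 3 genes with the lowest adjusted p in each direction and any gene already named. DDIT3, CEBPG, SLC7A11, CHAC1, PSPH, ASNS, SESN2, GAR1, TEAD1, PTPN14, CUL1, CDC34 and CDK1 were chosen after their values were seen. The comparison and gene lists were chosen with earlier results of these data known. Alternatives were other pseudocounts, filters, fits and scalings, leaving out each library, and, added after seeing the data, a block on the number in the column name. Spike-in scaling set the median log2 level of 55 spike-ins equal in all libraries. A correction of each library for transcript length and GC content (GENCODE v44 lifted to GRCh37), chosen after seeing the data, used a spline.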

Additional observations from a re-analysis of the deposited data

Results flagged for a closer look

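Of the 31 genes whose interaction differed between CYC065 and DMSO by limma's test of that difference over 24 libraries, 12 are named. The difference (CYC065 minus DMSO) was 2.01 for CXCL8 (adjusted p = 0.00898), 1.59 for EFNB2 (adjusted p = 0.00898) and 0.82 for CDK6, a G1 cyclin-dependent kinase (adjusted p = 0.0163). It was 0.63 for EGR1, an immediate early transcription factor (adjusted p = 0.029), and 0.59 for HUWE1 (adjusted p = 0.0491). Among the ATF4 targets it was 2.13 for CHAC1 (adjusted p = 0.0305), with an interaction of -0.95 in DMSO and 1.18 in CYC065, and 0.84 for SLC7A11 (adjusted p = 0.0193), with -0.46 and 0.38. For CEBPG it was 0.96 (adjusted p = 0.0245), with -0.59 and 0.37. It was -0.48 for CYR61 (adjusted p = 0.0453), -0.66 for HSPA8 (adjusted p = 0.00221), -1.04 for TMEM208, an endoplasmic reticulum protein (adjusted p = 0.00898), and -1.11 for ISCA2, of mitochondrial iron-sulfur assembly (adjusted p = 0.0109).

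CXCL8, EFNB2, CDK6, HSPA8, TMEM208 and ISCA2 were called in 24 of 24 fits that left out 1 library, SLC7A11 in 23, CEBPG in 21, EGR1 in 14, CHAC1 in 12, CYR61 in 4 and HUWE1 in 3. After the length and GC correction the adjusted p was 0.0529 for CDK6, 0.109 for CYR61 and 0.115 for HUWE1. With spike-in scaling none of the 12 was called, with adjusted p-values of 0.786 to 1 and the same signs. The cause of these differences was not tested.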

How the results depend on the processing

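The deposited FPKM are relative to the RNA sequenced per library, the lines are 1 per allele and total depth is unknown, and these limit every value. With spike-in scaling the counts past the threshold were 3847 for the DMSO interaction, 7222 for S62A against WT, 132 for T58A S62A against T58A, 148 for T58A against WT, 10593 for T58A S62A against S62A, 6197 for the CYC065 interaction and 0 for the treatment difference (183 at an unadjusted p under 0.05). On that scale 26 negative interactions turned positive: ACLY 0.31, ASNS 0.32, AURKA 0.46, CD44 0.34, CDK6 0.0093, CDKN1A 0.45, CEBPG 0.22, COL6A3 0.14, CUL1 0.53, DDR1 0.42, EFNB2 0.56, EGR1 0.052, HUWE1 0.15, MET 0.27, PDGFRB 0.27, PGD 0.41, PHLDA1 0.22, PSAT1 0.031, PSPH 0.13, PTPN14 0.29, SESN2 0.036, SLC7A1 0.14, SLC7A11 0.35, TBX18 0.014, TEAD1 0.16 and TRRAP 0.39. Relative to the median shift of 0.83, 0 reversed and 64 of the 87 named genes past the threshold lost their call.

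Requiring a fold of at least 1.5 left 773 genes for the DMSO interaction, 651 in CYC065, 571 for S62A against WT, 491 for T58A S62A against T58A, 509 for T58A against WT and 1084 for T58A S62A against S62A. A fit of all 30 libraries gave 2228 for the DMSO interaction, a filter at 5 FPKM gave 49 for the treatment difference, and the length and GC correction gave 1897 for T58A S62A against T58A. That correction moved the list medians, less that of all genes, to 0.045 (phosphodegron), -0.081 (cholesterol), -0.023 (DNA replication), -0.062 (glycolysis), -0.034 (collagens), -0.21 (other matrix), 0.00995 (mesenchymal factors), -0.28 (NF-kB), -0.26 (p53), -0.035 (BCL2) and -0.12 (imprinted). It ended the calls of CDC34, CDK1 and TRRAP. With spike-in scaling S62A alone lay below for 73.9% of positive (65.9% of all) and alone above for 0.787% of negative genes.

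Leaving out 1 library gave 888 to 1806 genes for the DMSO interaction, 1189 to 2453 for S62A against WT (lowest without the first S62A library), 818 to 1404 for T58A S62A against T58A (lowest without the first T58A library), 1152 to 2419 for T58A against WT (lowest without the third T58A library), 2081 to 3344 for T58A S62A against S62A, 1207 to 1565 in CYC065, and 7 (without the first T58A DMSO library) to 69 (without the third WT DMSO library) for the treatment difference. Of 87 named genes past the threshold, 81 kept their call in each such fit, and CDC34, CDK1, CHAC1, CUL1, HAND2 and SLC7A11 did not. The cause of these changes was not tested. A block on the replicate numbers of the labels could not be fitted, since the table's column names carry other numbers, which could not be matched to them. A replicate block on the column numbers, added after seeing the data, gave 1041 genes for the DMSO interaction and 18 for the treatment difference, and ended the DMSO calls of CDC34, CDK1, CUL1 and HAND2 and the treatment difference of CYR61 and HUWE1. Deviations from the line means correlated at -0.0414 to 0.165 between libraries with the same column number, over 0.1 in 4 of 18 pairs, and 9 of 12 libraries correlated best with one of their own number, a hint from the data and not the design.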

Other observations

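Genes of the immediate early and MAPK response had 1 positive and 4 negative members of 28 tested. EGR1 was highest in S62A, at 53.2 to 59.7 FPKM against 32.9 to 41.8 FPKM in the other lines, and its interaction was -0.76 (SE 0.10, adjusted p = 0.000815). PHLDA1, a pleckstrin homology protein induced by growth factors, was also highest in S62A, at 59.3 to 62.4 FPKM, with an interaction of -0.60 (adjusted p = 0.00252). ETV1, an ETS factor, was highest in T58A, at 12.6 to 13.6 FPKM, and lowest in T58A S62A, at 5.65 to 6.96 FPKM, with an interaction of -1.02 (adjusted p = 0.00117).

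Interferon-stimulated genes had 1 positive and 1 negative member of 30 tested. BST2, the antiviral membrane protein tetherin, was at 6.56 to 9.19 FPKM in T58A S62A and at 2.83 FPKM or less in the other 9 libraries, with an interaction of 2.83 (adjusted p = 0.00179). The epithelial keratin KRT19 was lowest in T58A S62A, at 1.08 to 1.40 FPKM, with an interaction of -1.38 (adjusted p = 0.011). PGD, of the pentose phosphate pathway, was highest in T58A, at 129.5 to 138 FPKM, with an interaction of -0.41 (adjusted p = 0.0161).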
